A study of Mus musculus with 37 samples.

Results

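The factors of the activator protein 1 (AP-1) and ATF group that are known as immediate-early genes were followed through the response of macrophages to a lipid A. The members were chosen by name, and the 10 genes are Fos, Fosb, Fosl1, Fosl2, Jun, Junb, Jund, Atf3, Batf and Egr1, out of 24016 genes in the deposited expression table. In all, 9 of the 10 were among the 10499 genes that reached 100 scaled reads at 1 or more time points in WT macrophages, and Fosb was the member that did not.

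PolyA RNA was sequenced from bone marrow-derived macrophages (BMDMs) of male mice 6 to 9 weeks old, grown for 6 days with M-CSF, the growth factor that drives the differentiation of bone marrow cells into macrophages. The WT cells came from C57BL/6J mice, and the Arntl-/- cells from mice on a C57BL/6 background that lack Arntl, the gene of the clock transcription factor Bmal1, in the whole body and not in macrophages alone. The study also calls the WT mice littermates, and how that goes with their C57BL/6J source is not given. Cells of both genotypes received Kdo2-lipid A (KLA), a ligand of Toll-like receptor 4 (TLR4) made of the lipid anchor of endotoxin and its first sugars, and were taken at 0, 6, 24 and 48 h. Each of the 8 conditions was 1 library, and whether a library pooled mice is not given in the sources used here, so a difference between a pair of libraries has no replicate check and no p-value. A test was made only over libraries that share a time or a genotype.

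AP-1 is a dimer of basic leucine zipper (bZIP) proteins, usually 1 Fos protein with 1 Jun protein, or a pair of Jun proteins, which binds a short palindromic site in promoters and enhancers. ATF and BATF proteins share the same kind of zipper and pair with Jun proteins, whereas Egr1 is a zinc finger factor that is grouped here because it is induced with the same early kinetics. In macrophages TLR4 reaches these genes through the MAP kinases and NF-κB, and many of their first transcripts typically appear and decay before the earliest time after KLA that was sampled here.

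Values are deposited FPKM divided by a size factor of each library, called scaled FPKM, and differences are log2 ratios with 0.1 added. A gene is said to have risen or fallen where the difference reached 1.5-fold, the line used in the study. The 95% interval after a fold is an exact binomial interval from the reads behind both values, so it covers counting error only. The reads on genes ranged from 8587563 in the Arntl-/- library at 48 h to 27036783 in the WT library at 6 h. Arntl was 34.7, 32.6, 35.9 and 39.1 scaled FPKM at 0, 6, 24 and 48 h in WT and 14.0, 11.4, 19.0 and 20.4 in Arntl-/- macrophages, lower at each time but not absent, with 75 to 136 reads left in the Arntl-/- libraries, and the deleted part of the gene is not given in the sources used here. The macrophage markers were high in every library (8 of 9 matched, summed scaled FPKM 15240 to 38002 in WT and 17164 to 33929 in Arntl-/-). The 7 lymphocyte markers summed to at most 15.6, with Cd3e and Cd3g at 0 throughout, the 3 mast cell markers to at most 3.70 and the 4 endothelial markers to at most 63.8. Stromal markers (8 of 8 matched) summed to 489.7, 595, 697 and 1380.0 in WT and to 368, 404, 437 and 788 in Arntl-/- macrophages, and neutrophil markers (7 of 8 matched, Mpo at 0 throughout) to 496, 519, 611 and 937 in WT and 872, 987, 829 and 950.1 in Arntl-/-. At 48 h S100a8 alone made 919.5 and 914 of the neutrophil sums, while S100a9, at 165 (WT) and 407 (Arntl-/-) at 0 h, was down to 10.2 and 9.09, and Ltf, at 19.1 and 42.9 before, was at 0 in both. In bulk RNA fewer cells of a type and less RNA per cell cannot be told apart.

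Bmal1 binds the E-box, and genes of this group are known to be driven by NF-κB, AP-1, EGR and serum response factors. For these sites, the 250 bases before the start of each gene were searched on both strands in RefSeq promoters of the GRCm38.p6 build, where 8 of the 10 members matched. Egr1 and Fosl1 were not matched. The 4 windows printed are those of Fos and Fosl2, which hold the sites described next, and those of Jund and Batf, the members that, of those that passed the filter, had the largest rise after KLA (in Arntl-/- macrophages) and the largest difference between genotypes. Each runs 5′ to 3′ on the plus strand, and capitals mark a match to a searched motif.
Fos: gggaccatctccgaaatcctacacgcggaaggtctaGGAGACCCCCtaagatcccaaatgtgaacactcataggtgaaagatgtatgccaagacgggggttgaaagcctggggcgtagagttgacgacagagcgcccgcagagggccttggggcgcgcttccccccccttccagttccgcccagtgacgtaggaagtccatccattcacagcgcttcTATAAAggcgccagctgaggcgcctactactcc
Fosl2: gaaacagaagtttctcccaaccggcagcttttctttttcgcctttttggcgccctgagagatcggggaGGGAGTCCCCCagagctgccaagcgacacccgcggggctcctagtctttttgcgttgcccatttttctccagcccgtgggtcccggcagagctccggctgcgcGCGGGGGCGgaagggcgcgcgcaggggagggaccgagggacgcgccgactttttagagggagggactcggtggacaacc
Jund: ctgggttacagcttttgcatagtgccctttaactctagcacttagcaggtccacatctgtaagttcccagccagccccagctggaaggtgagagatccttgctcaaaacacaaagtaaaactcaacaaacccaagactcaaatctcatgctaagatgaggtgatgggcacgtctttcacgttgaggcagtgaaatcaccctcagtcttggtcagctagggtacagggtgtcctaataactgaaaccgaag
Batf: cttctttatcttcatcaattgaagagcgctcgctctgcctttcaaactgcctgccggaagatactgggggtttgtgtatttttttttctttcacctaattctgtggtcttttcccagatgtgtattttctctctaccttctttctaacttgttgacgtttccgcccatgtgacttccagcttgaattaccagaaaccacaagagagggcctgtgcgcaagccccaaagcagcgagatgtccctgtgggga
These windows lie at chr12:85473640-85473889 (Fos), chr5:32136222-32136471 (Fosl2), chr8:70697489-70697738 (Jund) and chr12:85686470-85686719 (Batf). The capitals in the Fos window mark a kappaB site that begins 214 bases before the start and a TATA box (TATAAA) at 33. Those in the Fosl2 window mark overlapping kappaB matches at 182 and 181 and an EGR site (GCGNGGGCG) at 79. Fosb held a kappaB match at 188 and an EGR site at 50, and Jun held a CRE-like site (TGACNTCA) at 45. No match to any searched motif was found in the windows of Jund, Batf, Junb and Atf3. The kappaB site was thus in 3 of 8 member windows, against 3.90% of 32851 windows of all genes, the EGR site in 2 of 8 against 4.70%, the CRE-like site in 1 of 8 against 7.49% and TATAAA in 1 of 8 against 12.4%. The E-box (CACGTG) was in 0 of 8 windows against 6.02%, the AP-1 site (TGANTCA) in 0 of 8 against 6.75%, and the CArG box, to which serum response factor binds, in 0 of 8 against 1.47%. The search reached only 250 bases before the start and did not include Egr1 or Fosl1. A count of 0 therefore does not speak for sites further away or for those 2 genes. A match is a description of the letters, and no binding was measured here.

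The 10 genes spanned nearly the whole range of expression (plot of levels by time). By the mean of the 8 libraries, which is per length of transcript, the order was Atf3 (NM_007498, chr1:192994176-193007212) at 1015 scaled FPKM, Junb (NM_008416, chr8:87500808-87502647) at 962, Jun (NM_010591, chr4:94715727-94718913) at 734, Jund (NM_001286944, chr8:73221638-73224515) at 400.0, Fos (NM_010234, chr12:86814851-86818219) at 379, Fosl2 (NM_008037, chr5:32438845-32460212) at 190.0, Batf (NM_016767, chr12:87027670-87050037) at 128, Egr1 (NM_007913, chr18:35020861-35024610) at 48.5, Fosl1 (NM_010235, chr19:5447698-5455938) at 27.9 and Fosb (NM_008036, chr7:19888045-19895394) at 1.57. Coordinates are of mm9, as deposited. Atf3, Junb and Jun stood at percentiles 96.3, 96.0 and 94.0 of the genes that passed the filter, Batf near the middle at 53.1, and Egr1 and Fosl1 in the lower part at 22.7 and 11.3. Neighbors in this order overlapped in their range over the libraries in most cases. Jun did not overlap Jund (685 at the lowest against 637 at the highest), Batf did not overlap Egr1 (89.2 against 73.5), and Fosl1 did not overlap Fosb (9.02 against 2.74). Within a gene, the highest library exceeded the lowest 1.17-fold for Jun, 1.46-fold for Junb and 1.47-fold for Atf3, so the 3 most abundant members varied least. The ratio was 1.82 for Batf, 1.95 for Fos, 2.09 for Fosl2, 3.05 for Jund, 4.73 for Egr1 and 4.85 for Fosl1.

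**Figure D1:**
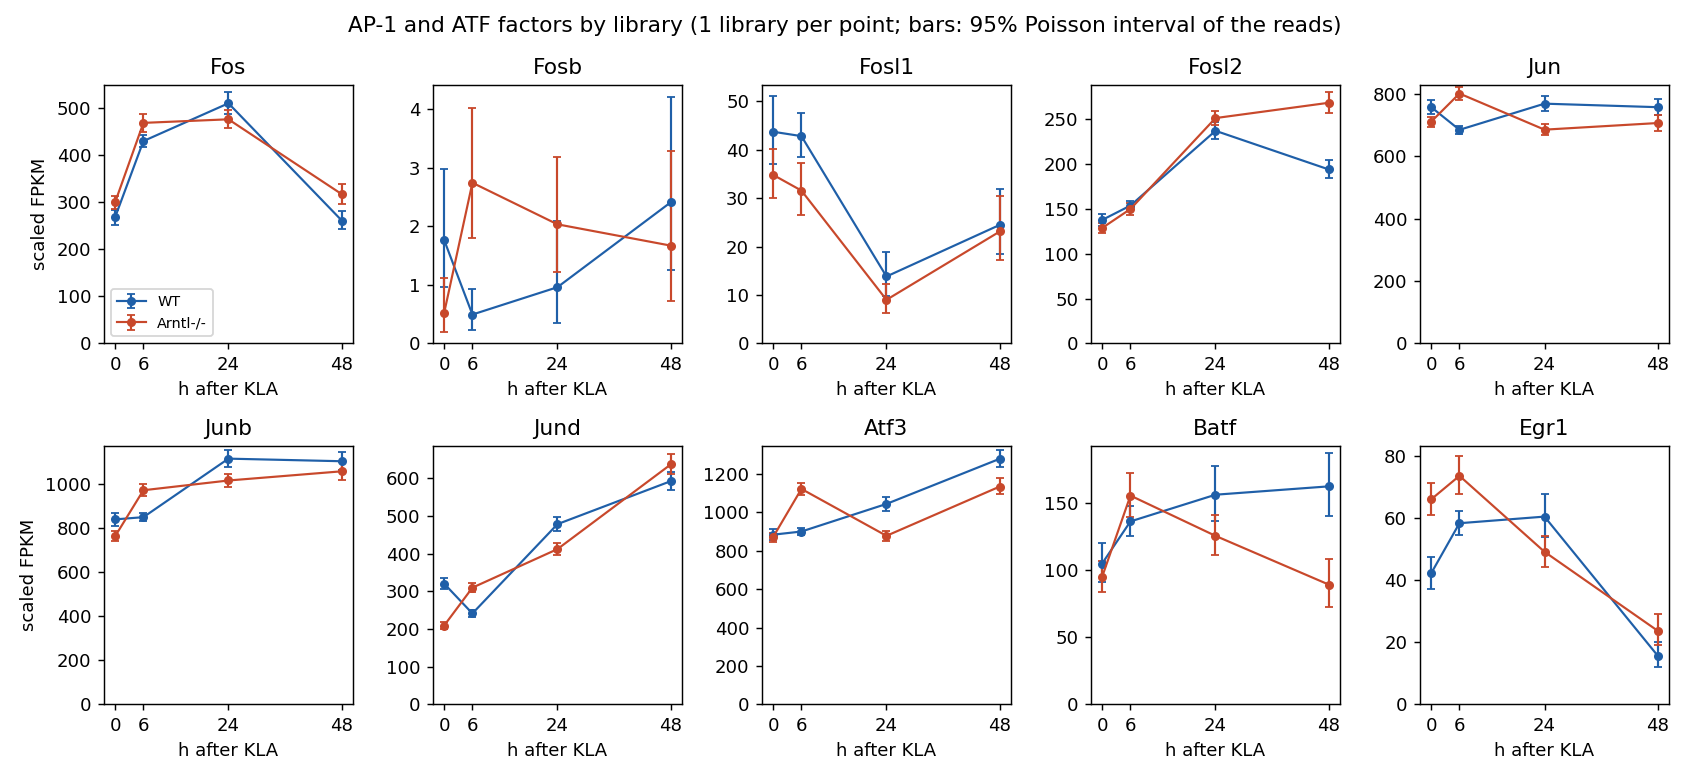
Scaled FPKM (vertical axes, each from 0) of the 10 members against hours after KLA (horizontal axes) in WT (blue) and Arntl-/- (red) macrophages, with 1 library per point and bars for the 95% Poisson interval of its reads. Fos is highest at 24 h and back near its starting level at 48 h, Jund climbs to 593 in WT and 637 in Arntl-/- macrophages, and Egr1 is lowest at 48 h in both.

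Among the Fos proteins, the partners that bind DNA only as a dimer with another zipper protein, Fos itself rose and returned. Fos was 268, 430.3, 511 and 261 scaled FPKM at 0, 6, 24 and 48 h in WT, from 1174, 4343, 1767 and 720 reads. It was 299.7, 469, 477 and 317 in Arntl-/- macrophages, from 1934, 2462, 2466 and 842 reads. The level was higher at 6 and 24 h than at 0 and 48 h in both genotypes. Against 0 h, Fos rose 1.61-fold (1.505 to 1.71) at 6 h and 1.91-fold (1.77 to 2.05) at 24 h in WT, and 1.56-fold (1.47 to 1.66) and 1.59-fold (1.497 to 1.69) in Arntl-/- macrophages, where a correction of each library for expression level gave log2 0.56 at 6 h, under the line. From 24 to 48 h it fell 1.95-fold (1.79 to 2.13) in WT and 1.502-fold (1.39 to 1.63) in Arntl-/- (log2 -0.51 with upper-quartile scaling, inside the line), and at 48 h the log2 difference from 0 h was -0.04 and 0.08.

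Fosl2, also called Fra-2, a Fos protein without the strong transactivation domain of Fos, rose later than Fos. It was 138, 154, 237 and 194 scaled FPKM in WT and 129, 149.9, 251 and 268 in Arntl-/- macrophages, and in both genotypes the 24 and 48 h libraries lay above the 0 and 6 h libraries. The rise over 0 h was 1.72-fold (1.62 to 1.83) at 24 h in WT, where the log2 difference was 0.49 at 48 h, and 1.95-fold (1.85 to 2.06) at 24 h and 2.09-fold (1.96 to 2.21) at 48 h in Arntl-/- macrophages. At 6 h the log2 differences were 0.16 and 0.22. The step from 6 to 24 h passed the line in both, 1.54-fold (1.47 to 1.62) in WT (log2 0.43 with the values as deposited, inside the line) and 1.68-fold (1.59 to 1.77) in Arntl-/-.

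Fosl1, or Fra-1, the related Fos protein that ERK signaling stabilizes, moved the other way. It was 43.7, 42.8, 13.8 and 24.5 scaled FPKM in WT, from 156, 352, 39 and 55 reads, and 34.8, 31.6, 9.02 and 23.1 in Arntl-/- macrophages, from 183, 135, 38 and 50 reads. The level moved little to 6 h, was lowest at 24 h in both genotypes and was higher again at 48 h. Fosl1 fell 3.16-fold (2.21 to 4.61) at 24 h and 1.78-fold (1.30 to 2.47) at 48 h in WT, and 3.86-fold (2.71 to 5.63) and 1.51-fold (1.10 to 2.10) in Arntl-/- macrophages, the last value lying almost on the 1.5-fold line (log2 -0.43 with a correction of each library for expression level). From 24 to 48 h it rose 1.77-fold (1.15 to 2.74) in WT and 2.57-fold (1.65 to 4.02) in Arntl-/-.

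Fosb was close to undetected in these macrophages, with 14, 9, 6 and 12 reads in WT and 6, 26, 19 and 8 reads in Arntl-/- macrophages, or 1.77, 0.494, 0.960 and 2.41 and 0.515, 2.74, 2.03 and 1.67 scaled FPKM. The counts are too few to order the times beyond wide limits. The highest was 26 reads in Arntl-/- macrophages at 6 h, against 9 in the deeper WT library at the same time.

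The Jun proteins, which can pair with themselves or with a Fos protein, held 1 member, Jund, that rose past the line, and 2 that did not pass it. Jun was 758, 685, 768 and 757 scaled FPKM in WT and 710.5, 801, 685 and 706 in Arntl-/- macrophages, and its log2 differences from 0 h ran only from -0.15 (WT at 6 h) to 0.17 (Arntl-/- at 6 h). Junb, a Jun protein that often acts against Jun at shared targets, was 837, 848, 1113 and 1101 in WT and 760.4, 969, 1014 and 1055 in Arntl-/- macrophages. Its level at 24 and 48 h was above that at 0 h in both genotypes, by log2 0.41 and 0.39 in WT and 0.41 and 0.47 in Arntl-/-, short of the 1.5-fold line. Level-corrected, the 48 h differences were 0.08 and 0.01 for Junb and -0.25 and -0.38 for Jun. At 6 h the uncorrected log2 difference of Junb was 0.02 in WT and 0.35 in Arntl-/-.

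Jund, the Jun protein that is expressed in most resting cells, was highest at 48 h in both genotypes, and its rise by then in Arntl-/- macrophages was the largest of the members that passed the filter, whereas in WT that of Fos at 24 h was the largest. It was 320.5, 241, 478 and 593 scaled FPKM in WT, from 1934, 3352, 2280 and 2250 reads, and 209, 309.6, 412 and 637 in Arntl-/- macrophages, from 1855, 2239, 2937 and 2329 reads. In both genotypes the 24 and 48 h libraries exceeded the 0 and 6 h libraries. Jund rose 1.85-fold (1.74 to 1.97) by 48 h in WT and 1.97-fold (1.86 to 2.09) by 24 h and 3.05-fold (2.87 to 3.25) by 48 h in Arntl-/- macrophages. The 24 h value in WT stood just under the line at log2 0.58. The 6 h values went in opposite directions, log2 -0.41 in WT and 0.57 in Arntl-/-. The 2 libraries with the highest Jund level, those at 48 h, were also the 2 with the fewest reads (9191167 and 8587563), and the WT 6 h library, the deepest, was among the 2 lowest. The 10% of genes with the highest expression lay at a median log2 of -0.35 against the mean of the libraries in the WT 6 h library and at 0.30 and 0.25 in the 48 h libraries. Transcripts of high GC content, of which Jund with 62.7% is one, were likewise low in the Arntl-/- 0 h library and high at 48 h, with GC-rich minus GC-poor genes at log2 -0.22 in the former and 0.19 and 0.26 in the 48 h libraries. With each library corrected for expression level, the 48 h differences of Jund were log2 0.78 in WT and 1.46 in Arntl-/-, and with a correction for GC content 0.67 and 1.29, all past 1.5-fold.

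Atf3, a bZIP factor that restrains cytokine genes downstream of TLR4, was already the most abundant member at 0 h. It was 884, 901, 1045 and 1280.2 scaled FPKM in WT and 871, 1123, 878 and 1135 in Arntl-/- macrophages. No time differed from 0 h by 1.5-fold, and the log2 differences at 6, 24 and 48 h were 0.03, 0.24 and 0.53 in WT and 0.37, 0.01 and 0.38 in Arntl-/-. Level-corrected, the 48 h differences were 0.21 in WT and -0.10 in Arntl-/-, so the order of the times and the direction in Arntl-/- depend on that correction. At 6 h in WT, where abundant genes lay low, the level-corrected log2 differences of Atf3, Jun and Junb were 0.41, 0.15 and 0.38.

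Batf, a small zipper protein without a transactivation domain that pairs with Jun proteins and with IRF factors, was 105, 136, 156 and 163 scaled FPKM in WT, from 198, 593, 233 and 193 reads. In Arntl-/- macrophages it was 94.98, 156, 126 and 89.2, from 264, 352, 280 and 102 reads. The WT level was higher at each later time, whereas the Arntl-/- level was highest at 6 h and lower at 24 and 48 h. Batf rose 1.55-fold (1.26 to 1.90) by 48 h in WT and 1.64-fold (1.39 to 1.93) at 6 h in Arntl-/- macrophages. The WT value at 24 h was just short of the line at log2 0.57 (past it at 0.59 with the level correction), and the Arntl-/- value at 48 h was log2 -0.09. With a correction for GC content the 48 h difference in WT was log2 0.52, and with the values as deposited 0.49, both under the line.

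Egr1, the zinc finger factor induced through MAP kinases and serum response factor, was low at 48 h. It was 42.1, 58.2, 60.3 and 15.5 scaled FPKM in WT, from 271, 864, 307 and 63 reads, and 65.9, 73.5, 49.0 and 23.6 in Arntl-/- macrophages, from 625, 567, 373 and 92 reads. The 48 h library was the lowest in each genotype, and the 6 h library of Arntl-/- macrophages was the highest of all. Against 0 h, Egr1 fell 2.71-fold (2.05 to 3.62) in WT and 2.79-fold (2.24 to 3.52) in Arntl-/- macrophages by 48 h, and from 24 to 48 h it fell 3.88-fold (2.95 to 5.17) and 2.08-fold (1.65 to 2.64). At 24 h the log2 difference from 0 h was 0.52 in WT and -0.43 in Arntl-/-.

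**Figure D2:**
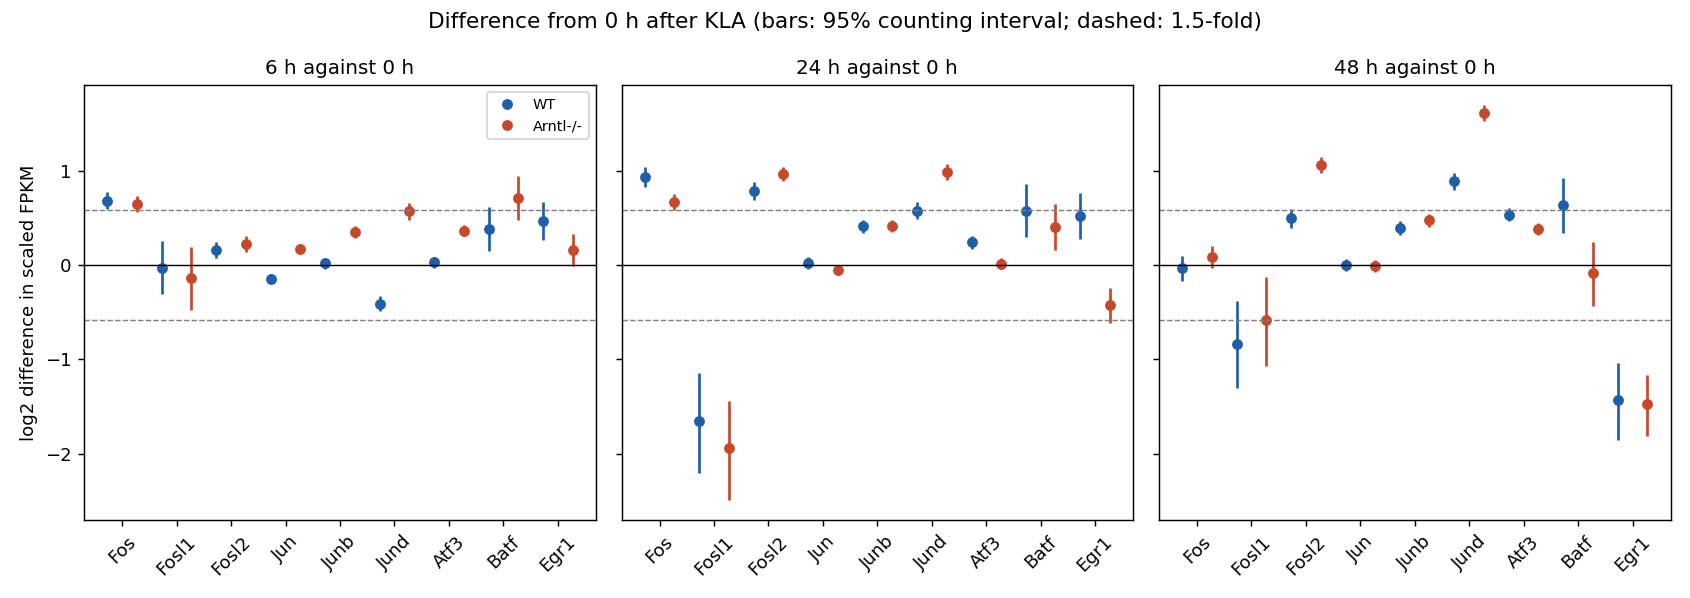
Log2 difference in scaled FPKM from 0 h (vertical axis) of the 9 members that passed the filter (horizontal axis) at 6, 24 and 48 h after KLA in WT (blue) and Arntl-/- (red) macrophages, with bars for the 95% counting interval and dashed lines at 1.5-fold. Fos stands above the line at 6 and 24 h, Fosl1 below it at 24 h and Egr1 below it at 48 h in both genotypes.

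Counted over the 9 members that passed the filter, the number past 1.5-fold was small at 6 h and grew later, as it did over all genes. In WT 1 member rose (Fos) and 0 fell at 6 h, where 5.39% of all genes that passed the filter rose and 3.58% fell. At 24 h, 2 rose (Fos and Fosl2) and 1 fell (Fosl1), against 8.70% and 8.84% of all genes. At 48 h, 2 rose (Jund and Batf) and 2 fell (Fosl1 and Egr1), against 13.5% and 15.2%. In Arntl-/- macrophages 2 rose at 6 h (Fos and Batf) and 0 fell, against 3.10% and 3.40%. At 24 h, 3 rose (Fos, Fosl2 and Jund) and 1 fell (Fosl1), against 7.79% and 9.62%. At 48 h, 2 rose (Fosl2 and Jund) and 2 fell (Fosl1 and Egr1), against 15.2% and 17.3%. From 6 to 24 h, 2 rose (Fosl2 and Jund) and 1 fell (Fosl1) in WT, against 7.67% and 8.42%, and 1 rose (Fosl2) and 1 fell (Fosl1) in Arntl-/-, against 5.83% and 6.14%. From 24 to 48 h, 1 rose (Fosl1) and 2 fell (Fos and Egr1) in WT, against 8.24% and 9.72%, and 2 rose (Fosl1 and Jund) and 2 fell (Fos and Egr1) in Arntl-/-, against 6.97% and 9.07%. The last rise of Jund was at log2 0.63, but inside the line at 0.56 with the level correction and 0.50 with the GC correction, whereas Egr1 from 6 to 24 h in Arntl-/-, at -0.58, fell past it with both (-0.59 and -0.59). The median log2 difference of the 9 members was 0.03, 0.52 and 0.39 at 6, 24 and 48 h in WT, where the median of all genes was -0.03, -0.00 and 0.00, and 0.35, 0.40 and 0.08 in Arntl-/-, where it was 0.00, 0.01 and -0.01. Level-corrected, the middle member stood at 0.35 (Batf), 0.54 (Jund) and 0.08 (Junb) in WT. In Arntl-/- it stood at 0.21 (Fosl2), 0.27 (Junb) and -0.06 (Fos), so the order of the genotypes at 6 h depends on the correction. The 3 comparisons of a genotype share its 0 h library. At 48 h the stromal sum was highest in both genotypes, S100a9 and Ltf had fallen as given above, and 6 of the 8 macrophage markers had risen in each genotype (median log2 0.72 in WT and 0.90 in Arntl-/-), and their part in these differences was not tested.

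Between genotypes at most 2 of the 9 members passed the line at any time. At 0 h, 1 of the 9 members was higher in Arntl-/- macrophages and 1 lower by 1.5-fold, against 3.22% and 1.99% of all genes. The higher one was Egr1, 65.9 scaled FPKM in Arntl-/- against 42.1 in WT, or 1.57-fold (1.36 to 1.81) higher, and log2 0.58 with the correction for expression level, just inside the line. The lower one was Jund, 209 against 320.5, or 1.54-fold (1.44 to 1.64) lower, and with a correction for expression level or GC content this difference was log2 -0.55 or -0.57, also inside the line. At 6 h no member that passed the filter differed by 1.5-fold, against 2.03% of all genes higher and 2.66% lower, and 7 of the 9 were higher in Arntl-/- macrophages, led by Jund at log2 0.36, Egr1 at 0.33 and Atf3 at 0.32. Level-corrected, these 3 were 0.22, 0.44 and -0.06, and 3 of the 9 remained above 0. Fosb, which did not pass the filter, was 5.55-fold (2.52 to 13.5) higher in Arntl-/- macrophages, from 26 and 9 reads, whereas at 0 h it had been 3.44-fold (1.24 to 10.9) lower, from 6 and 14 reads.

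At 24 h, 8 of the 9 members were lower in Arntl-/- macrophages, and 1 of them, Fosl1, passed the line, against 3.62% of all genes higher and 3.13% lower by 1.5-fold. Level-corrected, 2 of the 9 were above 0, against 1 without the correction. Fosl1 was 9.02 scaled FPKM in Arntl-/- and 13.8 in WT, from 38 and 39 reads, and the interval of the 1.53-fold (0.956 to 2.47) difference reached past 1, so at this depth it is not separated from no difference. At 48 h, 1 was higher and 1 lower, against 5.75% and 5.91% of all genes. Batf was 89.2 in Arntl-/- and 163 in WT, 1.82-fold (1.43 to 2.34) lower, and Egr1 was 23.6 against 15.5, 1.52-fold (1.09 to 2.12) higher from 92 and 63 reads (log2 0.58 with the level correction). Fosl2 stood at log2 0.47 and Fos at 0.28 at 48 h, and the other differences lay between -0.17 (Atf3) and 0.10 (Jund). The median of the 9 members was -0.10, 0.19, -0.22 and -0.06 at 0, 6, 24 and 48 h, and that of all genes -0.01, 0.01, -0.00 and -0.02. Level-corrected, the middle member stood at 0.06 (Junb), -0.05 (Fosl2), -0.09 (Atf3) and -0.02 (Junb), so the signs at 0 and 6 h depend on the correction. At 0 h 2 of the 9 were above 0 without it and 5 with it. Egr1 was higher in Arntl-/- macrophages at 0, 6 and 48 h and lower at 24 h, with no member past 1.5-fold in the same direction at every time. The summed neutrophil markers were higher in the Arntl-/- library at 0, 6 and 24 h, whereas at 48 h 0 of the 3 that passed the filter differed by 1.5-fold and their median log2 difference was -0.01. The stromal sum was lower at each time, but not every marker was, since Dcn was higher at 0, 24 and 48 h (39.5 in Arntl-/- against 17.0 in WT at 0 h and 92.2 against 63.0 at 48 h). Whether these bear on the members was not tested.

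**Figure D3:**
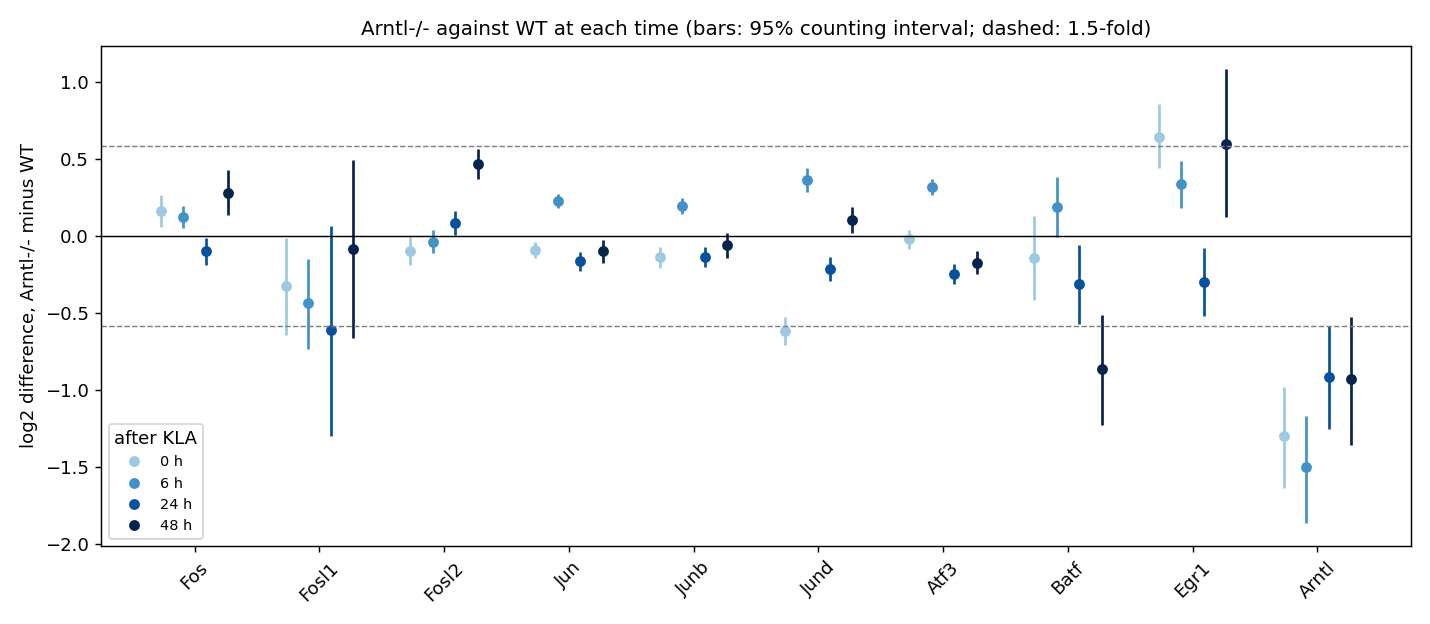
Log2 difference of Arntl-/- minus WT in scaled FPKM (vertical axis) at 0, 6, 24 and 48 h after KLA (light to dark) for the 9 members that passed the filter and for Arntl (horizontal axis), with bars for the 95% counting interval and dashed lines at 1.5-fold. Arntl lies below the lower line at every time, while the members scatter around 0, with Batf at -0.86 at 48 h as the lowest of their points.

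A test over both genotypes and over all times was made after the data had been seen, with limma fitted to the log2 levels of all 10499 genes on genotype and time together. The libraries are then paired by time for the genotype, 4 pairs, and by genotype for each time, 2 pairs, with 3 residual degrees of freedom, and the spread holds any difference of the time course between genotypes. The SE and p-values of this fit measure scatter over times and genotypes. They do not measure variation between mice or cultures, since no condition has a second library. No member differed between genotypes at a limma adjusted p under 0.05, and none at an unadjusted p under 0.05, against 0.152% of all genes higher and 0.124% lower in Arntl-/- at the adjusted threshold. The member with the largest difference was Fosl1 at log2 -0.37 (SE 0.18, limma adjusted p = 0.610), followed by Egr1 at 0.32 (SE 0.18, 0.6775) and Batf at -0.28 (SE 0.14, 0.626), and Arntl itself was at -1.16 (SE 0.19, 0.0242). Leaving out each library in turn, Arntl was called in 2 of 8 fits (limma adjusted p from 0.0134 to 0.133) and no member in any.

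By the same limma fit Fos was the 1 of 9 members called at 6 against 0 h, at log2 0.66 (SE 0.12, adjusted p = 0.0217), where 1.09% of all genes were higher and 0.0952% lower. At 24 against 0 h 3 members were higher and 1 lower, against 7.89% and 7.39%. These were Fosl2 at 0.87 (SE 0.14, limma adjusted p = 0.00206), Fos at 0.80 (SE 0.12, 0.00143), Jund at 0.78 (SE 0.19, 0.0166) and Fosl1 at -1.80 (SE 0.25, 0.00101). At 48 against 0 h 2 were higher and 2 lower, against 16.9% and 18.1%. These were Jund at 1.248 (SE 0.19, limma adjusted p = 0.000403), Fosl2 at 0.78 (SE 0.14, 0.00154), Egr1 at -1.45 (SE 0.25, 0.000955) and Fosl1 at -0.71 (SE 0.25, 0.0471). Leaving out each library in turn, the calls of Fos, Fosl2 and Fosl1 at 24 h and of Jund, Fosl2 and Egr1 at 48 h held in 8 of 8 fits. That of Fos at 6 h held in 4 of 8 (lost without either 0 h or either 6 h library), that of Jund at 24 h in 5 (lost without the Arntl-/- 0 h or either 24 h library), and that of Fosl1 at 48 h in 2. With the level correction Fosl1 at 48 h was no longer called (limma adjusted p = 0.0838), while Junb was higher at 24 h (0.0335) and Jun lower at 48 h (log2 -0.31, 0.0103).

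Summed per family, the Fos transcripts were 451, 627, 762 and 482 scaled FPKM at 0, 6, 24 and 48 h in WT and 464, 653, 739 and 610.4 in Arntl-/- macrophages, and the Jun transcripts 1915, 1773, 2359 and 2451 in WT and 1679.6, 2080.0, 2111 and 2399 in Arntl-/-. The make-up of the Fos family shifted over the time course. Fos made up 59.4, 68.6, 67.0 and 54.2% of it in WT and 64.6, 71.8, 64.5 and 52.0% in Arntl-/- macrophages. Fosl2 made up 30.5, 24.5, 31.1 and 40.2% in WT and 27.7, 22.9, 34.0 and 44.0% in Arntl-/-, lowest at 6 h and highest at 48 h in both. Fosl1 was 9.70% and 7.51% at 0 h and 1.82% and 1.22% at 24 h. In the Jun family Junb kept between 43.7 and 48.0% in all libraries, Jun went from 39.5% and 42.3% at 0 h to 30.9% and 29.4% at 48 h, and Jund from 16.7% and 12.4% to 24.2% and 26.6%. Transcript shares say nothing of protein or of dimers, which were not measured in these files.

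**Figure D4:**
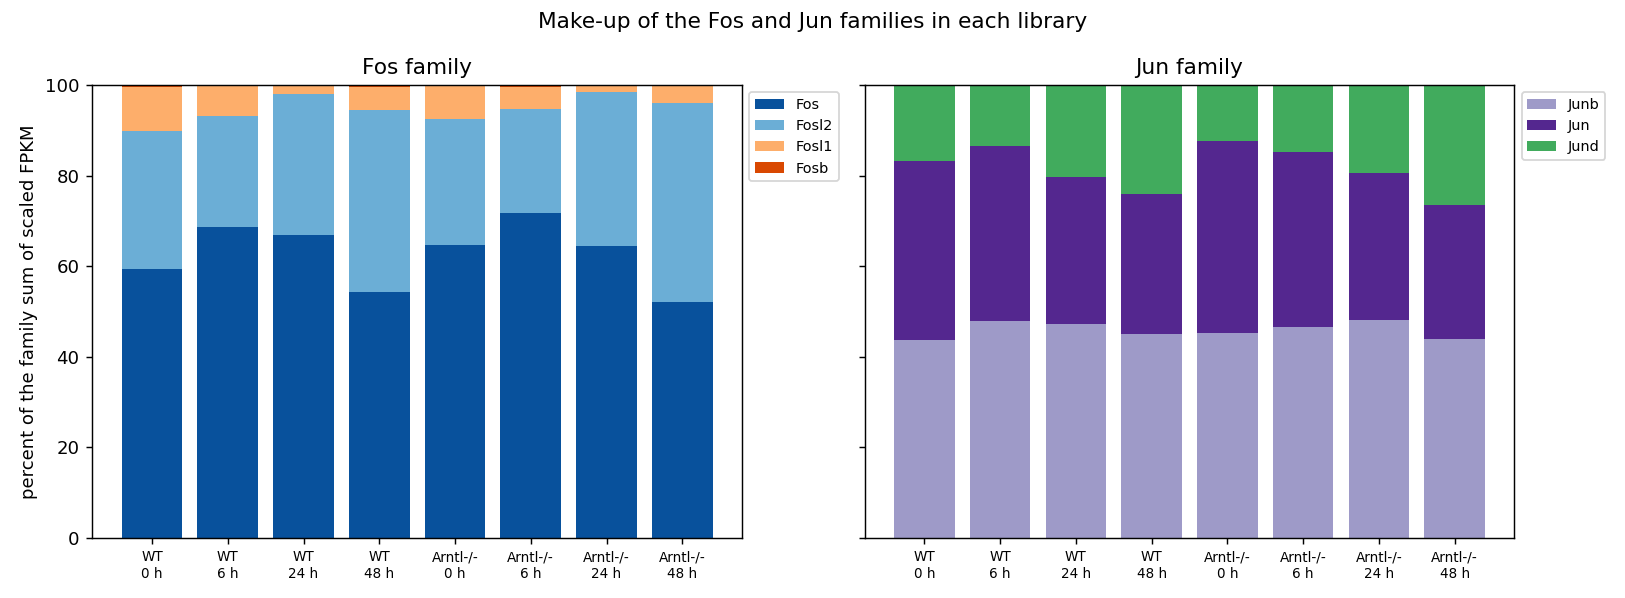
Percent of the summed scaled FPKM of the Fos family (left) and the Jun family (right) held by each gene (vertical axis, from 0) in each of the 8 libraries (horizontal axis), with stacked bars of 1 library each. The Fosl2 share is highest at 48 h, at 40.2% in WT and 44.0% in Arntl-/- macrophages, and the Jund share rises to 24.2% and 26.6%.

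Of 26 further bZIP factors, the possible partners and rivals of the members, 25 passed the filter. In WT 2, 7 and 5 rose at 6, 24 and 48 h and 1, 0 and 1 fell, and in Arntl-/- macrophages 4, 5 and 7 rose and 0, 0 and 1 fell, to be read against the shares of all genes given above. Their median log2 difference was -0.13, 0.23 and 0.30 in WT and 0.10, 0.31 and 0.12 in Arntl-/-, where the medians of all genes lay between -0.03 and 0.01. In WT the largest rise at 6 h was that of Batf2, a relative of Batf that interferons induce, with scaled FPKM at 34.1 against 8.02 (log2 2.07), from 225 and 23 reads. Maff, a small Maf protein, was next at 66.3 against 33.4 (log2 0.99). At 0 h Batf2 was higher in Arntl-/- than in WT macrophages at 23.2 against 8.02 (log2 1.52), from 98 and 23 reads. Nfil3, a repressor that also takes part in the clock, rose in both genotypes at 24 h, at 100.4 against 44.1 (log2 1.19) in WT and 139.6 against 47.7 (log2 1.55) in Arntl-/-. Cebpb, a regulator of inflammatory genes in myeloid cells, rose in Arntl-/- macrophages at every time, with 1176 against 406 (log2 1.53) at 24 h. At 0 h it had been lower in Arntl-/- than in WT macrophages at 406 against 748 (log2 -0.88), and at 6 h it was higher at 895 against 490.1 (log2 0.87). Between genotypes 1, 2, 0 and 2 of the 25 were higher in Arntl-/- and 2, 0, 1 and 2 lower at 0, 6, 24 and 48 h, against 3.22, 2.03, 3.62 and 5.75% of all genes higher and 1.99, 2.66, 3.13 and 5.91% lower.

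Among 33 other immediate-early genes 30 passed the filter, and 7, 9 and 11 rose at 6, 24 and 48 h in WT and 0, 2 and 4 fell. In Arntl-/- macrophages 6, 4 and 6 rose and 0, 1 and 2 fell. Of all genes 5.39, 8.70 and 13.5% rose and 3.58, 8.84 and 15.2% fell in WT, and 3.10, 7.79 and 15.2% rose and 3.40, 9.62 and 17.3% fell in Arntl-/-. Their median log2 difference was 0.32, 0.11 and 0.27 in WT and 0.26, 0.21 and 0.15 in Arntl-/-, where the medians of all genes lay between -0.03 and 0.01. Klf2, a Krüppel-like factor that restrains macrophage activation, rose at 6 h in both genotypes at 204 against 109 (log2 0.90) in WT and 188 against 86.6 (log2 1.12) in Arntl-/-. Myc, the growth regulator, fell at 24 h in both at 50.7 against 163 (log2 -1.68) in WT and 33.1 against 134 (log2 -2.01) in Arntl-/-. At 48 h Myc was lower in Arntl-/- than in WT macrophages at 32.2 against 93.7 (log2 -1.54). Cyr61, a secreted matrix protein, rose at 48 h in WT at 44.96 against 3.54 (log2 3.63), where the stromal markers were highest too, and in Arntl-/- at 25.3 against 5.12 (log2 2.28). Dusp2, a phosphatase that switches off MAP kinases, was at 6 reads in WT at 48 h, or 2.82 against 32.2 (log2 -3.47). In Arntl-/- macrophages it was 19.1 at 0 h and 16.1 at 48 h, and thus higher than in WT at 48 h by log2 2.47, from 33 and 6 reads. Between genotypes 1, 0, 2 and 3 of the 30 were higher in Arntl-/- and 1, 2, 1 and 4 lower, against 3.22, 2.03, 3.62 and 5.75% of all genes higher and 1.99, 2.66, 3.13 and 5.91% lower.

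Of 26 genes of the MAP kinase cascade upstream of AP-1, 25 passed the filter. In WT 0, 1 and 2 rose and 1, 1 and 5 fell at 6, 24 and 48 h, and in Arntl-/- macrophages 0, 0 and 1 rose and 1, 2 and 3 fell, with medians of -0.11, 0.03 and -0.17 in WT and -0.03, 0.01 and -0.07 in Arntl-/-, where the medians of all genes lay between -0.03 and 0.01. Of all genes 5.39, 8.70 and 13.5% rose and 3.58, 8.84 and 15.2% fell in WT, and 3.10, 7.79 and 15.2% and 3.40, 9.62 and 17.3% in Arntl-/-. Map3k8, the kinase that links TLR4 to ERK, rose in WT at 24 h at 122 against 80.7 (log2 0.59). Mapk8, which encodes the Jun kinase JNK1, fell by 48 h in both genotypes at 12.8 against 27.4 (log2 -1.09) in WT and 15.1 against 34.5 (log2 -1.19) in Arntl-/-. Mapk3, which encodes ERK1, rose by 48 h at 1033 against 645 (log2 0.68) in WT and 940.0 against 547 (log2 0.78) in Arntl-/-. Between genotypes 1 of the 25 passed the line at any time, against the shares of all genes in the paragraph on immediate-early genes, Mapk11, a p38 kinase that was lower in Arntl-/- at 0 h at 18.5 against 29.8 (log2 -0.68). Of the 6 serum response and ternary complex factors, which drive Fos and Egr1, 1 passed the line, Srf, in WT at 48 h at 84.7 against 131 (log2 -0.63).

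Of 19 genes described as AP-1 targets 16 passed the filter, and they moved in both directions. In WT 4, 5 and 9 rose and 0, 3 and 2 fell at 6, 24 and 48 h, and in Arntl-/- macrophages 3, 5 and 9 rose and 0, 4 and 4 fell. The median log2 difference was -0.12, -0.03 and 0.86 in WT and 0.22, -0.08 and 0.62 in Arntl-/-, against the same medians of all genes. Over all genes 13.5% rose and 15.2% fell at 48 h in WT and 15.2% and 17.3% in Arntl-/-, and the shares at the other times and between genotypes are those given with the immediate-early genes. Il1b, which encodes the cytokine interleukin 1 beta, rose most at 24 h at 599.9 against 46.6 (log2 3.68) in WT and 714 against 93.0 (log2 2.94) in Arntl-/-. Ccnd1, the cyclin of the early cell cycle, fell at 24 h at 142 against 707 (log2 -2.32) in WT and 131 against 606 (log2 -2.21) in Arntl-/-. Plau, the urokinase protease, fell at the same time at 262 against 766 (log2 -1.55) and 249 against 844 (log2 -1.76). Vegfa, an angiogenic growth factor, was among the genes that rose most in Arntl-/- macrophages at 48 h at 624 against 109 (log2 2.52). Between genotypes 2, 0, 0 and 2 of the 16 were higher in Arntl-/- and 0, 2, 0 and 4 lower at 0, 6, 24 and 48 h, and the lowest at 48 h was Timp1, an inhibitor of matrix proteases, at 35.8 against 78.4 (log2 -1.13).

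For the 6 members that passed the filter and varied at least 1.5-fold, the genes of the most similar course over the 8 libraries were found among 6672 genes by Pearson's r of the log2 level, as a description only, since the 8 libraries also differ in depth and in the GC trend given above. For Fos they were Btg2, an antiproliferative early gene (r = 0.956), Prdm1, the repressor Blimp-1 (0.945), and Tarm1 (0.943), and 10 genes reached 0.9. For Egr1 they were Pmaip1, the BH3 protein Noxa (0.975), Sema6b (0.972) and Cenpl (0.971), of 157 genes that reached 0.9. For Batf they were Nr1h3, which encodes the oxysterol receptor LXR alpha (0.943), Tmem79 (0.891) and Josd2 (0.890), and 1 gene reached 0.9. For Fosl1 they were Jade3 (0.981), Dagla (0.978) and Nav2 (0.969), of 64 genes. For Fosl2 they were Tmcc1 (0.985), Spen (0.984) and Narf (0.982), of 198 genes, and for Jund Gpsm3 (0.994), Tesk1 (0.992) and Yipf4 (0.991), of 506 genes. Fos and Batf thus had few companions, and Jund had the most. Jund also had the strongest correlation of its log2 level with the log2 depth of the libraries (r = -0.892). That r was 0.699 for Egr1, -0.598 for Fosl2, 0.365 for Fosl1, 0.332 for Fos and 0.019 for Batf. Among the members themselves, r was 0.831 between Fosl2 and Jund, -0.816 between Fosl1 and Fosl2, -0.754 between Jund and Egr1 and 0.640 between Fos and Egr1.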

How the data were processed

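PolyA RNA was measured in 8 libraries, 1 for each of 2 genotypes at 4 times after KLA. Per the labels, the paired-end reads were aligned to mm9 with STAR and counted on RefSeq genes with HOMER, versions not given in the sources used here. The FPKM that the authors deposited count exon tags of both strands for 1 transcript of each gene, at a setting of no more than 3 tags for a position, relative to exon length and to 10000000 reads. How the tag limit acted is not settled by the values, since up to 50.3 reads per base were recovered. Without strand, reads of a gene and of an overlapping antisense gene cannot be told apart. Another 4 value columns match no sample used here, and the 29 ChIP and input samples were not analysed here.

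The reads behind each value were recovered from the step size of FPKM times length in each library, with 100% of low values within 0.1 of a whole read. They may be ends of pairs and so not independent, so the 95% exact Poisson and binomial intervals cover counting error only and may be too narrow. Size factors (0.909 to 1.11) were the median of ratios over all 8 libraries, and log2 ratios used a pseudocount of 0.1. The filter was 100 scaled reads at 1 or more WT times, and the call 1.5-fold. A difference between 2 libraries has no test. Added after seeing the data, limma 3.58.1 (R 4.3.3) was fitted to the log2 values on genotype and time over the 8 libraries, with a trended prior variance and Benjamini-Hochberg adjustment over 10499 genes, and repeated without each library in turn. The alternatives tried were no size factors, upper-quartile scaling, pseudocounts of 1 and 0.01, a 2-fold line, other filters and lowess corrections for expression level and, added after seeing the data, for GC content (9598 genes with a transcript in the mouse annotation).

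The members and lists were chosen with earlier results of these data known. Genes named besides the members are, per list and comparison, up to 2 of the largest rises and 2 of the largest falls, and per member the 3 genes of the highest r. A gene counts as high or low in a list only if it passed the filter. In simulated data of 10499 genes the limma test of genotype recovered 99.5% of 200 genes shifted by 1.5 on the log2 scale, and 4.78% of its calls were false. That shift is larger than the genotype difference of any member in the fit, the largest being log2 -0.37 (Fosl1). The simulated libraries had no trend with expression level or GC content and no difference of time course between genotypes. Recovery of smaller differences, and of differences between times, was not tested. Promoter sequences are those of RefSeq. The software was statsmodels 0.14.6, matplotlib 3.10.9, scipy 1.17.1, pandas 2.3.3 and numpy 2.4.6 under Python 3.11.15.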

Additional observations from a re-analysis of the deposited data

Results flagged for a closer look

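For 4 of the members the log2 difference from 0 h went one way in WT and the other way in Arntl-/- macrophages, with both counting intervals excluding no change. There was 1 library on each side, so the difference between genotypes was not tested, and its cause was not tested either. Fosb, which did not pass the filter, was at log2 -1.65 in WT and 2.21 in Arntl-/- macrophages at 6 h, a gap of 3.86, from 6 to 26 reads. These reads may be ends of pairs, so its intervals may be too narrow. Jund at 6 h was at -0.41 and 0.57, a gap of 0.98, and kept these directions after the correction for expression level (-0.29 and 0.48). Egr1 at 24 h was at 0.52 and -0.43, a gap of -0.94, and also kept its directions after that correction (0.57 and -0.36). Jun at 6 h was at -0.15 and 0.17, a gap of 0.32, but after the correction both values were above 0 (0.15 and 0.01).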

How the results depend on the processing

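The number of members past 1.5-fold was recomputed under each alternative over all 14 comparisons, those from 6 to 24 h and from 24 to 48 h having been added after seeing the data, and no called value of a member changed direction under the scalings, corrections and pseudocounts. In WT the count at 6 against 0 h was 1, but 2 with the values as deposited, 2 without the filter and 0 at a 2-fold line. At 2-fold the counts were 1 (in place of 3) at 24 h and 1 (in place of 4) at 48 h in WT, and 0 (in place of 2) at 6 h and 1 (in place of 4) at 24 h in Arntl-/- macrophages, where 3 of 4 stayed past the line at 48 h. That count was also 3 with upper-quartile scaling, a pseudocount of 1 and the level correction, each without Fosl1. In WT at 48 h the count was 3 as deposited and 3 with the GC correction, without Batf in both, and at 24 h it was 4 with the level correction, with Batf added. The Arntl-/- count at 6 h was 1 with the correction for expression level. Between genotypes at 0 h the count of 2 was 1 as deposited, 0 at 2-fold, 0 with the level correction and 1 with the correction for GC content, which was chosen after seeing the data. At 6 h it was 1 without the filter (in place of 0). Without the filter Fosb, on 6 to 26 reads, also raised the counts to 4 at 24 h in WT, to 3, 5 and 5 at 6, 24 and 48 h in Arntl-/- macrophages and to 3 between genotypes at 0 h. At 24 h the count of 1 was 0 as deposited, 0 with a pseudocount of 1, 0 at 2-fold and 2 without the filter. At 48 h the count of 2 was 1 with a pseudocount of 1, 1 with the level correction and 0 at 2-fold. As deposited, the median of all genes over the comparisons moved as far as 0.13 (6 against 0 h in WT) and -0.18 (48 against 0 h in Arntl-/- and 24 against 6 h in WT). In the first 9.87% of all genes then rose and 1.07% fell (5.39% and 3.58% with size factors), and in the others 10.1% and 24.2% (15.2% and 17.3%) and 3.51% and 16.1% (7.67% and 8.42%). The cause of these shifts was not tested. From 6 to 24 h the counts at 2-fold were 1 (in place of 3) in WT and 1 (in place of 2) in Arntl-/-, and from 24 to 48 h 1 (in place of 3) and 2 (in place of 4). Of 35 called values among the 9 members, the level correction lost 6 and gained 2 (Batf in WT at 24 against 0 h and Egr1 in Arntl-/- at 24 against 6 h), the GC correction lost 3 and gained 1 (the same value of Egr1), the values as deposited lost 5 and gained 3, upper-quartile scaling lost 2 and a pseudocount of 1 lost 3. No paired analysis was possible because the labels give no replicate numbers, if pairing by number is meant. Paired by time and genotype in the limma fit, the members called at 6, 24 and 48 against 0 h and between genotypes were 1, 4, 4 and 0, with the correction for GC content 1, 4, 4 and 0 and with that for expression level 1, 5, 4 and 0. Without each library in turn they were 0 to 1, 3 to 5, 3 to 5 and 0. The fewest reads were those of Fosb (6 to 26) and of Fosl1 at 24 and 48 h (38 to 55).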
